A study of Oncorhynchus mykiss with 32 samples.

Results

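The effect of a high-energy, high-fat diet was described in the liver of 1 line of rainbow trout (Oncorhynchus mykiss), the line selected for fat muscle (F). The comparison rests on 16 of the 32 arrays of the study, 8 livers of F fish fed the high-energy diet (F-HE) and 8 livers of F fish fed the low-energy diet (F-LE), chosen by the line and diet given in the sample labels. The other 16 livers were of the lean-muscle line (L) and are used only to set the diet difference of the F line beside that of the L line. Both lines came from 3 generations of divergent selection on muscle fat, and every group was fed from the first feeding for 6 months in 3 tanks. The HE diet held 23% lipid and the LE diet 10% lipid by the labels. Both diets shared a fishmeal base, to which fish oil was added in the HE diet. By the study, the HE diet also held less protein and starch and more n-3 relative to n-6 fatty acids. A larger energy content, more fish oil and these other changes came together and cannot be told apart. Each line is 1 selected population, and the diet was given to tanks rather than to single fish.

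Liver RNA was labelled with a radioactive nucleotide and hybridized to nylon membranes carrying trout cDNA clones, 1 membrane per liver. A level is given here as the log2 of the corrected signal of a clone over the median signal of its membrane, so that 0 is the median spot and a difference of 1 is a factor of 2. Differences are F-HE minus F-LE. A clone was called where its Benjamini-Hochberg adjusted p in the limma fit, over all clones tested, was under 0.15, a level taken from the study's methods. Levels of different clones are not compared with each other, since they depend on the spot.

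The liver takes up dietary fat, makes cholesterol and fatty acids, and exports both in lipoproteins. In vertebrates cholesterol is built from acetyl-CoA by a long chain of enzymes in the cytosol and the endoplasmic reticulum. The genes of this chain are under common control by sterol-sensing transcription factors (SREBPs), which in mammals respond to the sterol content of the cell. Fatty acids that enter the hepatocyte are carried by small binding proteins and are either stored, exported or broken down by beta-oxidation in the mitochondria.

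One F-HE array stood apart from the rest. The array on membrane 59 had a median Spearman correlation of 0.16 with the other F-line arrays over all clones, and its control spots had a median of 0.21 log10 units above the membrane median. The arrays on membranes 65 (F-HE) and 62 (F-LE) had median correlations of 0.84 and 0.83. The remaining 13 arrays lay between 0.95 and 0.97. Control spots lay between 1.84 and 2.26 log10 units on the 15 arrays other than membrane 59, and between 7613 and 8073 of the 9023 clones were measured per array. The comparison is therefore given over all 16 arrays, over the 15 arrays without membrane 59, and over the 13 arrays without membranes 59, 65 and 62.

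**Figure D1:**
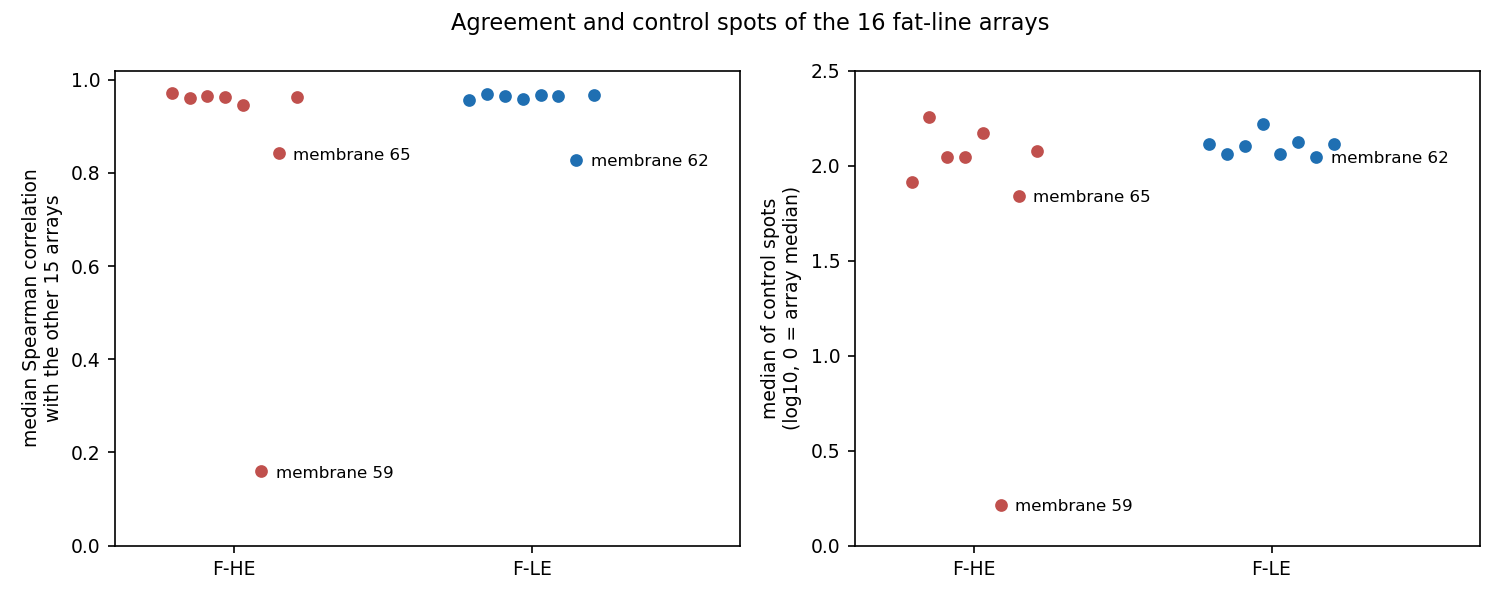
Each point is 1 array, F-HE left and F-LE right; the left panel gives the median Spearman correlation of its clone levels with the other 15 arrays and the right panel the median of its control spots in log10 units above the membrane median. Membrane 59 lies at 0.16 and 0.21, and membranes 65 and 62 lie at 0.84 and 0.83 in the left panel.

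A single transcript was called over all 16 arrays, and 12 of the 13 called without membrane 59 were lower in F-HE livers. Over 16 arrays, 1 of 7775 clones (0.0129%) was called, ERG28, lower in F-HE livers. Without membrane 59, 13 of 7769 clones (0.167%) were called, 12 of them lower (0.154%) and 1 higher (0.0129%) in F-HE livers. The 13 included 4 clones of cholesterol synthesis (ERG28, DHC24, THIC and EBP), 1 acyl-CoA carrier (ACBP), 1 enzyme of fatty acid oxidation (ECHA) and 1 enzyme that makes NADPH (6PGD). Over 16 arrays 187 clones (2.41%) had an unadjusted p under 0.05, of which 139 were lower (1.79%) and 48 higher (0.617%) in F-HE livers. Over 15 arrays 278 clones (3.58%) did, of which 185 were lower (2.38%) and 93 higher (1.2%). The 13 called clones had the same direction over 16 arrays, where only ERG28 was called. The 15 arrays on which they were chosen are among the 16, so this direction is no separate evidence. In RNA of whole liver, fewer cells of a type and less RNA per cell cannot be told apart.

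The 12 falls were not equally firm. ERG28 was called in each of the 15 fits that left out 1 further array. The count of called clones was 1 without membrane 67, 61, 54, 40, 39, 24, 12, 11 or 8, 3 without membrane 65 or 7, 4 without membrane 5, 7 without membrane 14, 12 without membrane 72 and 20 without membrane 62. The next clone after ERG28, DHC24, was called in 5 of those 15 fits, and the other 11 in 1 to 4 of them. These 11 shared 1 limma adjusted p of 0.147, just under the threshold. Their unadjusted limma p ran from 7.31e-05 (ERMAP) to 0.000247 (6PGD), so a lost call does not rank the 11 against each other. With membranes 65 and 62 left out as well, 25 of 7748 clones were called, 20 lower and 5 higher, and 10 of the 13 were among them.

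Diets were given to tanks, and the tank means kept the order of the livers for all 13 called clones. For each of them the 3 F-HE tank means, without membrane 59, lay on 1 side of the 3 F-LE tank means, which held for 6.86% of all clones tested, 4.3% with F-HE lower and 2.56% with F-HE higher. These means hold the same livers as the calls and are a description of them. When the 6 tank means alone were fitted no clone was called (225 clones at an unadjusted p under 0.05), and an exact test of 3 tanks against 3 cannot give a p below 0.1. With tank as a random block 14 clones were called, among them all 13, and with the tank number as a fixed block 17 were called, among them 11 of the 13. The random block did not lower the count at an unadjusted limma p under 0.05 (289 clones, against 278 without it). The fixed block joins tanks of the same number, which are different tanks. Neither fit takes the tank as the unit, as the fit of tank means does, so neither shows that the calls hold against the spread between tanks.

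ERG28 (clone tcbk0026.a.17) matched the probable ergosterol biosynthetic protein, which in yeast tethers the enzymes that remove methyl groups from sterols. Its level in F-HE livers was -0.73 at lowest, -0.33 at the median and -0.01 at highest, against 0.19, 0.80 and 1.20 in F-LE livers. The lowest of these was the outlying membrane 59, and without it the F-HE livers had -0.50, -0.23 and -0.01. All 8 F-HE livers, membrane 59 included, lay below all 8 F-LE livers, which held for 4 clones of 7775 (0.0514%). The 7 without membrane 59 did so too, as for 4 clones of 7769 (0.0515%). The tank means were -0.37, -0.09 and -0.33 in F-HE tanks without membrane 59, against 0.78, 0.75 and 0.89 in F-LE tanks. The difference was -1.08 ± 0.15 (SE, n = 7 and 8, limma adjusted p = 0.00864), so that the level in F-HE livers was 0.474 of that in F-LE livers. Over all 16 arrays it was -1.13 ± 0.16 (SE, n = 8 each, limma adjusted p = 0.0128). The two-sided exact permutation test gave p = 0.000155 over 16 arrays and p = 0.000311 without membrane 59. The exact p values here and below are not adjusted for the number of clones and belong to clones chosen on the same values. They exchange single livers, although diets were given to tanks.

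DHC24 (tcay0009.m.15) matched the reductase that acts on the sterol side chain at the end of cholesterol synthesis. Without membrane 59 its level in F-HE livers was -1.90, -1.61 and -1.30 (lowest, median and highest), against -1.39, -0.41 and 0.02 in F-LE livers. A single F-LE liver, that of membrane 72, lay within the F-HE range, and 7 of 8 F-LE livers lay above all 7 F-HE livers. Membrane 72 also gave the lowest F-LE value for ERG28, THIC, EBP, ACBP and, of the called clones described below, ERMAP, PKHA5 and KIF2A. For 6PGD, ECHA, MYCBP and 1RT117O05_A_H03 the lowest F-LE value came from another liver. The difference was -1.08 ± 0.19 (SE, limma adjusted p = 0.111). On membrane 59 the level was -0.18, and with it the difference was -0.91 and was not called (limma adjusted p = 0.854).

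THIC (tcbk0049.e.13) matched the cytosolic acetyl-CoA acetyltransferase, which joins acetyl-CoA units at the entry of the pathway. Its level in F-HE livers without membrane 59 was 0.07, 1.18 and 1.43, against 1.14, 2.20 and 2.72 in F-LE livers. The groups overlapped, with the lowest F-HE value on membrane 65 and 7 of 8 F-LE livers above all F-HE livers. The difference was -1.07 ± 0.23 (SE, limma adjusted p = 0.147) over 15 arrays and -0.97 without membranes 59, 65 and 62 (limma adjusted p = 0.0878).

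EBP (1RT102I12_C_E06) matched the sterol isomerase known as emopamil-binding protein. Its level in F-HE livers without membrane 59 was 1.43, 1.85 and 2.18, against 2.09, 2.51 and 2.79 in F-LE livers. The difference was -0.67 ± 0.14 (SE, limma adjusted p = 0.147), with 6 of 7 F-HE livers below every F-LE liver. Over 13 arrays it was -0.58 and was not called (limma adjusted p = 0.16).

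The remaining clones of the cholesterol list, EBPL and ERG25, were lower in F-HE livers by their estimates and were not called over 15 arrays. EBPL (tcbk0026.b.02), a relative of EBP, had -0.18, 0.05 and 0.42 in F-HE livers without membrane 59, against 0.25, 0.98 and 1.36 in F-LE livers. Its difference was -0.76 ± 0.18 (SE, limma adjusted p = 0.219), and it was called over 13 arrays at -0.80 (limma adjusted p = 0.0878). ERG25 (1RT39G22_C_D11), the methylsterol oxidase of the demethylation step at which the ERG28 protein works, had 2.84, 3.27 and 3.72 in F-HE livers, against 2.68, 3.90 and 4.16 in F-LE livers. The lowest F-LE value of ERG25, 2.68, was that of membrane 62, and the difference was -0.47 ± 0.21 (SE, limma adjusted p = 1.0).

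All 6 cholesterol clones thus had a lower estimate in F-HE livers, 4 of 6 were called over 15 arrays and 1 of 6 over 16, and their median difference was -0.92 over 15 arrays, -0.89 over 16. The median of all 7769 clones tested was -0.01 over 15 arrays, of which 54.3% had a lower estimate, against 49.5% over 16 arrays. All clones of this and the following lists have names because the study had called them for diet or line on arrays of this series. Among all 283 clones with a protein name, 198 had a lower estimate and the median was -0.15, 11 were called lower and 71 were lower at an unadjusted p under 0.05, against 2.38% of all clones. The counts of a list are therefore no independent evidence of its direction.

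**Figure D2:**
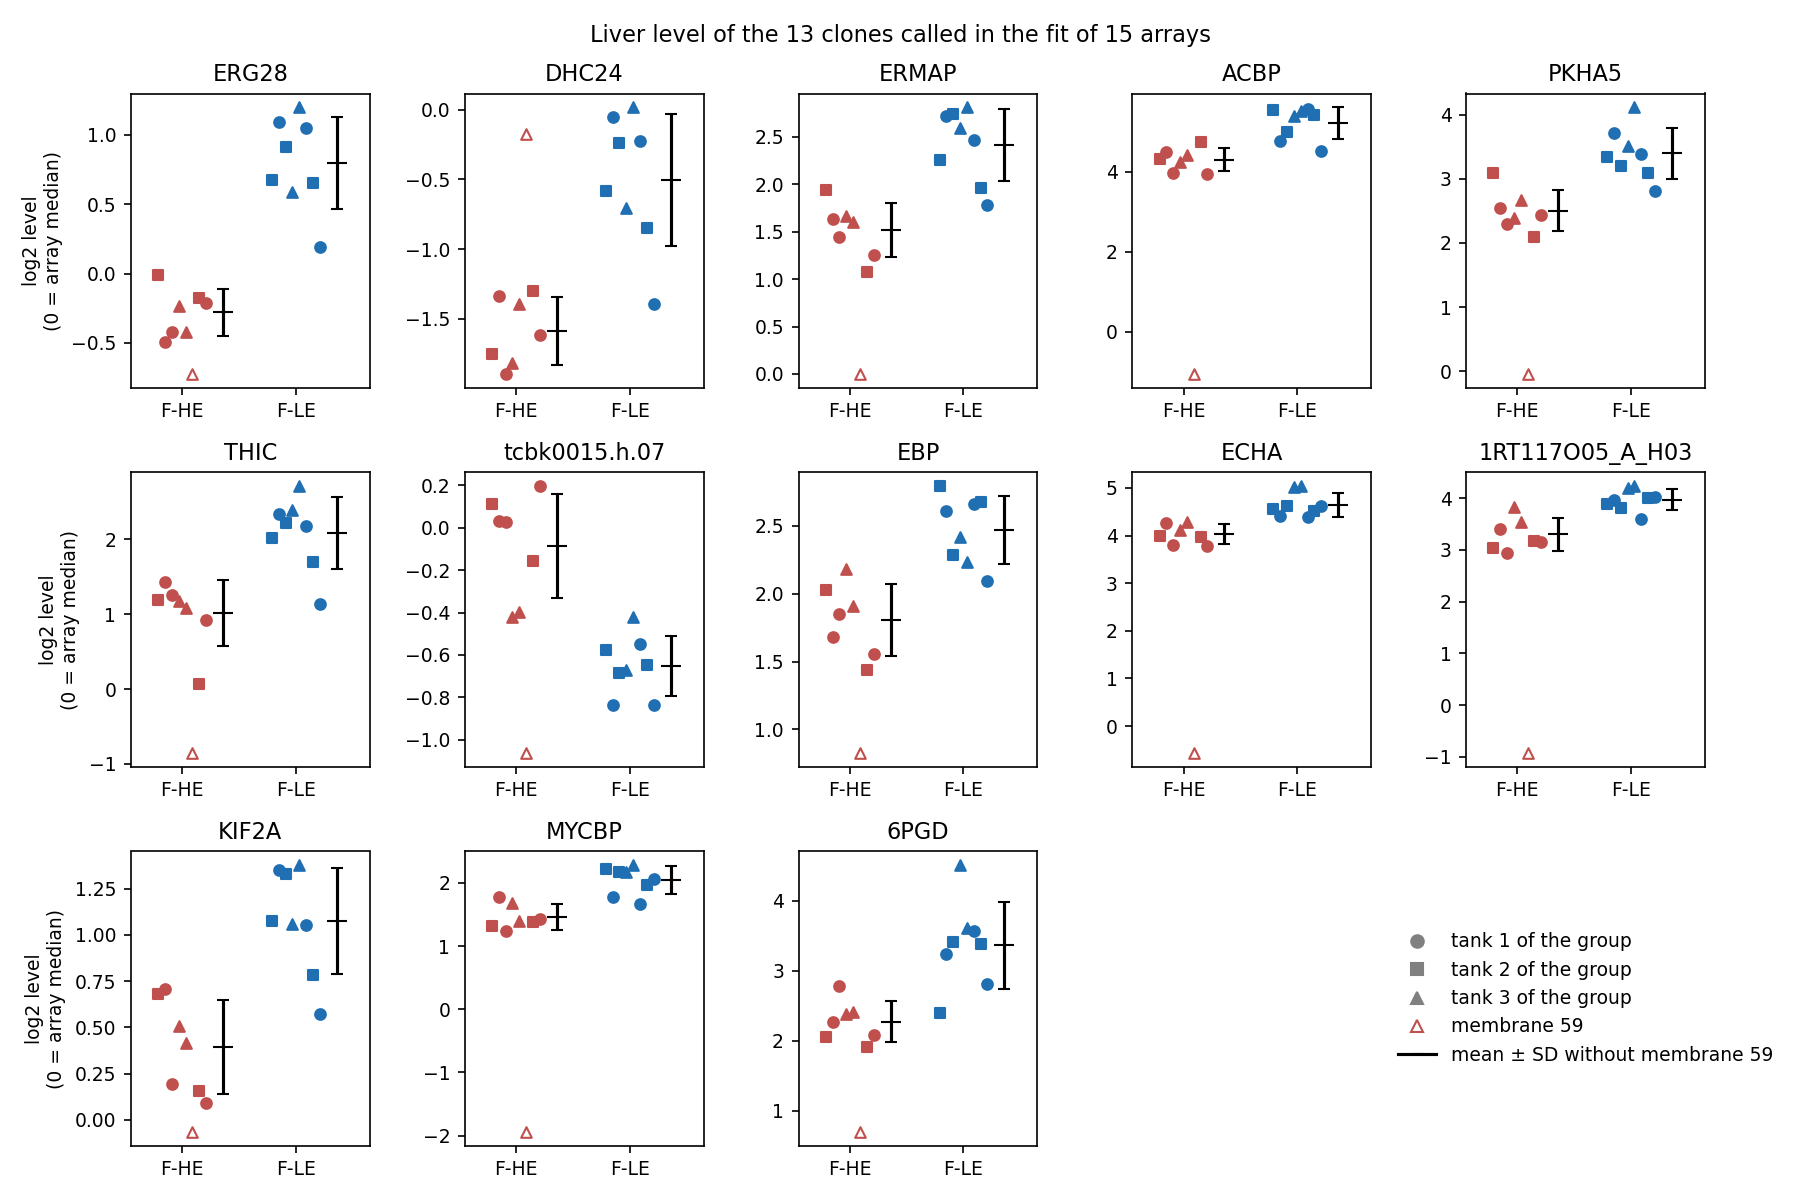
Each panel is 1 called clone, with the level of each liver in log2 units relative to the membrane median, F-HE left and F-LE right; marker shapes give the tank, the open triangle is membrane 59, and the bar is the mean ± SD without it. ERG28, ECHA and tcbk0015.h.07 do not overlap between the groups once membrane 59 is left out, and membrane 59 lies far below the other F-HE livers for ACBP, PKHA5, ECHA, 1RT117O05_A_H03 and MYCBP.

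Of the carriers of fatty acids and acyl-CoA, 1 of 5 clones was called over 15 arrays, against 11 of all 283 clones with a protein name. Acyl-CoA-binding protein (ACBP, 1RT36I05_A_E03), which keeps acyl-CoA esters in solution in the cytosol, had 3.93, 4.31 and 4.73 in F-HE livers without membrane 59, against 4.52, 5.41 and 5.57 in F-LE livers. Its difference was -0.91 ± 0.18 (SE, limma adjusted p = 0.147), and 6 of 7 F-HE livers lay below every F-LE liver. With membrane 59 it was -1.58 and was not called (limma adjusted p = 0.854). A second ACBP clone, tcbk0030.c.13 had -2.81, -2.04 and -1.86 in F-HE livers, against -2.44, -2.06 and -1.61 in F-LE livers. The difference of this second clone was -0.13 ± 0.15 (SE, limma adjusted p = 1.0), with a 95% interval of -0.46 to 0.19 that leaves out the value of the first.

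Both clones of the heart-type fatty acid-binding protein (FABPH), a carrier of long-chain fatty acids, had lower estimates and were not called. For tcav0002.b.06 the F-HE livers had 2.29, 2.91 and 3.34, against 3.14, 3.49 and 4.21 in F-LE livers, a difference of -0.64 ± 0.18 (SE, limma adjusted p = 0.66). For tcay0002.n.16 the F-HE livers had 3.88, 4.37 and 4.95, against 4.62, 5.07 and 5.20 in F-LE livers, a difference of -0.52 ± 0.16 (SE, limma adjusted p = 0.842). In both, 5 of 7 F-HE livers lay below the lowest F-LE liver, and over 16 arrays the differences were -1.16 and -1.07. The nonspecific lipid-transfer protein (NLTP) differed by -0.27 ± 0.22 (SE, limma adjusted p = 1.0) over 15 arrays and by 0.05 over 16. The median of the 5 carriers was -0.52 over 15 arrays and -1.07 over 16, where none was called.

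Of the 6 clones of fatty acid synthesis, desaturation and oxidation, 2 were called over 15 arrays, both lower. Among all 283 clones with a protein name 11 were called, all lower. The 6PGD clone (tcac0006.o.18), 6-phosphogluconate dehydrogenase of the pentose phosphate pathway, which supplies NADPH for the making of fatty acids and sterols, had 1.91, 2.27 and 2.79 in F-HE livers without membrane 59, against 2.40, 3.39 and 4.52 in F-LE livers. The difference of 6PGD was -1.10 ± 0.24 (SE, limma adjusted p = 0.147), and 7 of 8 F-LE livers lay above all F-HE livers. Over 13 arrays it was -1.04 and was not called (limma adjusted p = 0.181).

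The alpha subunit of the mitochondrial trifunctional enzyme (ECHA, 1RT85A15_A_A08), which carries out steps of the beta-oxidation of long-chain fatty acids, had 3.78, 3.98 and 4.28 in F-HE livers without membrane 59, against 4.39, 4.59 and 5.04 in F-LE livers. No F-HE liver reached the F-LE range, and the level on membrane 59 was -0.57. The difference was -0.62 ± 0.13 (SE, limma adjusted p = 0.147) over 15 arrays, with an exact permutation p of 0.000155, the smallest that 7 against 8 livers can give, and -1.19 over 16 (limma adjusted p = 0.854). No overlap in this direction was seen for 4 clones of 7769 (0.0515%), 2 of them ERG28 and ECHA.

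The fatty acyl desaturase that makes long-chain polyunsaturated fatty acids (FADS, 1RT28E12_C_C06) varied more between livers. It had 2.29, 3.28 and 4.04 in F-HE livers without membrane 59, against 2.97, 4.14 and 5.09 in F-LE livers, and 4 of 8 F-LE livers lay above the F-HE range. Its difference was -0.96 ± 0.31 (SE, limma adjusted p = 0.996), and -1.53 over 16 arrays. The other members were near the median of all clones: FABG 0.18 ± 0.21, ACS2L -0.04 ± 0.15 and FABD -0.07 ± 0.12 (differences ± SE), so that the list held 5 lower estimates of 6 with a median of -0.34. Over 16 arrays ACS2L was at 0.12, 4 of 6 estimates were lower and the median was -0.61.

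No clone of extracellular lipid transport was called. Apolipoprotein A-I (APA11), the main protein of high-density lipoprotein, had 2.99, 3.81 and 3.99 in F-HE livers without membrane 59, against 3.20, 3.54 and 4.15 in F-LE livers, a difference of 0.13 ± 0.16 (SE, limma adjusted p = 1.0) that turned to -0.27 with membrane 59. Vitellogenin (VIT), the egg yolk precursor, differed by -0.57 ± 0.29 (SE), and the cholesteryl ester transfer protein (CETP) by -0.13 ± 0.20 (SE).

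**Figure D3:**
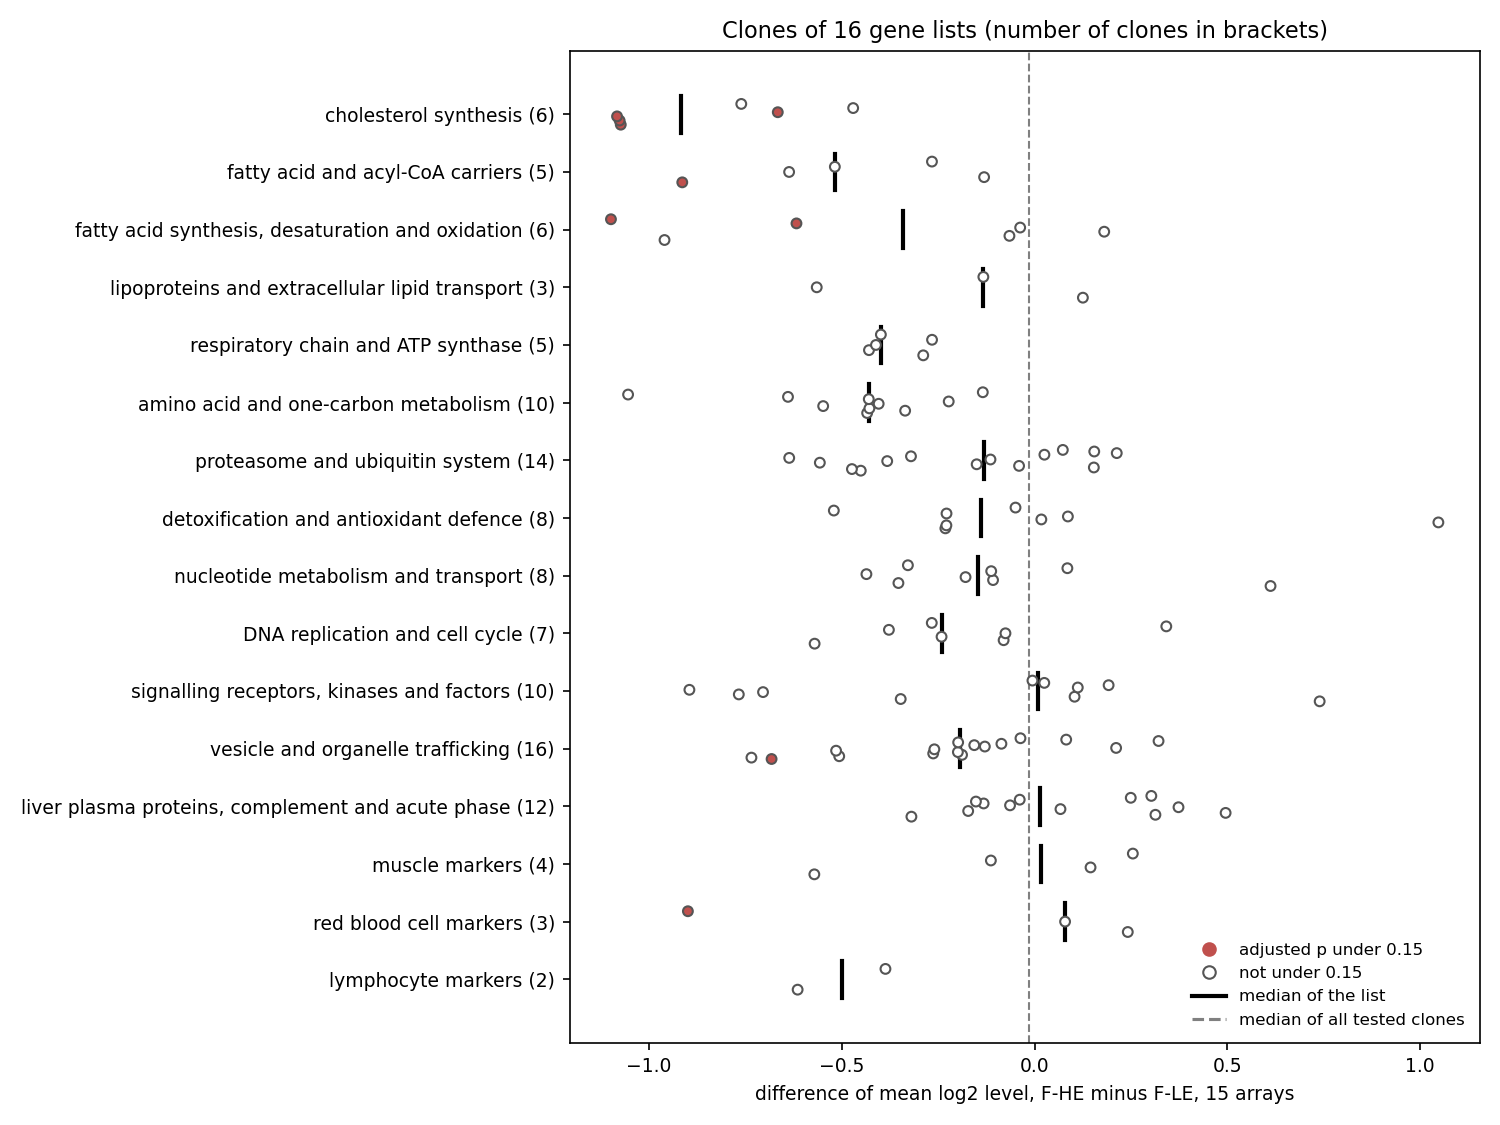
Each point is 1 clone of a gene list, placed by its difference of mean log2 level, F-HE minus F-LE, over 15 arrays; filled points were called, thick bars are list medians, and the dashed line is the median of all tested clones. The cholesterol list has its median at -0.92, while the lists of plasma proteins and signalling have medians of 0.01, which are -0.37 and -0.22 with membrane 59.

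Energy and amino acid metabolism had lower estimates throughout and no called clone. The 5 respiratory chain and ATP synthase clones lay between -0.43 and -0.27 over 15 arrays, with a median of -0.40, and -0.65 over 16. Of the 5, 2 were lower at an unadjusted limma p under 0.05 over 15 arrays, against 71 of 283 named clones. The alpha subunit of ATP synthase (ATPA) had 2.11, 2.17 and 2.71 in F-HE livers without membrane 59, against 2.16, 2.78 and 2.96 in F-LE livers, a difference of -0.41 ± 0.14 (SE, limma adjusted p = 1.0). Both clones of the gamma subunit (ATPG) had lower estimates, -0.40 ± 0.15 and -0.27 ± 0.14 (SE). Over 16 arrays ATPA was at -0.89 and the ATPG clones at -1.02 and -0.61.

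All 10 clones of amino acid and one-carbon metabolism had lower estimates, with a median of -0.43 over 15 arrays. Of the 10, 8 were lower at an unadjusted limma p under 0.05 over 15 arrays, 6 over 16 and 7 over 13. Among all 283 clones with a protein name, 198 had a lower estimate and 71 were lower at this level over 15 arrays. The larger difference of the 2 clones of formyltetrahydrofolate dehydrogenase (FTHFD), a folate enzyme, was that of tcbk0009.o.05, which had 0.29, 1.62 and 2.07 in F-HE livers without membrane 59, against 1.39, 2.24 and 3.15 in F-LE livers. It differed by -1.05 ± 0.31 (SE, limma adjusted p = 0.66), and the second clone, 1RT110O02_C_H01, by -0.64 ± 0.23 (SE, limma adjusted p = 1.0). Phosphoglycerate dehydrogenase (SERA), the first enzyme of serine synthesis, differed by -0.43 ± 0.16, the aminotransferase AADAT by -0.43 ± 0.15, betaine-homocysteine methyltransferase (BHMT) by -0.55 ± 0.25, and cystathionine gamma-lyase (CGL) by -0.34 ± 0.16 (SE). None of these passed the adjusted threshold.

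The counts of protein turnover lay near those of all clones with a protein name. Of 14 clones of the proteasome and ubiquitin system 9 had lower estimates over 15 arrays, with a median of -0.13. Of the 14, 4 were lower at an unadjusted limma p under 0.05. Among all 283 clones with a protein name, 198 had a lower estimate, the median was -0.15 and 71 were lower at this level. The ubiquitin ligase STUB1, which acts with chaperones, differed by -0.64 ± 0.20 (SE, limma adjusted p = 0.996), and the peptidase TPP2 by -0.56 ± 0.18 (SE, limma adjusted p = 0.996). The 2 clones of the proteasome subunit PSB7 differed by -0.45 ± 0.14 and -0.47 ± 0.33 (SE). Over 16 arrays TPP2 was at -0.34 and the second PSB7 clone, 1RT61L10_D_F05, at -0.97.

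The list of detoxification and antioxidant defence held the largest positive estimate among the 119 listed clones over 15 arrays, which was not the largest over 16. The cytochrome P450 clone CP2J2 (tcay0039.p.23), of a family that oxidizes fatty acids and foreign compounds, had 2.95, 3.10 and 3.59 in F-HE livers without membrane 59, against 1.03, 1.99 and 3.09 in F-LE livers. The difference was 1.05 ± 0.26 (SE, limma adjusted p = 0.304), and F-LE livers spread over a wider range than F-HE livers. With membrane 59, where the level was -0.32, the difference was 0.61. The nucleotide hydrolase 8ODP, which clears oxidized nucleotides, differed by -0.52 ± 0.18 (SE, limma adjusted p = 1.0) and by -0.31 over 16 arrays, and the 8 clones of this list had a median of -0.14.

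Nucleotide metabolism (8 clones, median -0.15) and DNA replication and cell cycle (7 clones, median -0.24) held no called clone. In the first, adenylate kinase (KAD2) differed by -0.35 ± 0.12 and uricase (URIC), which breaks down uric acid, by -0.33 ± 0.12 (SE). Of its 8 estimates 6 were lower, and the largest by size was a rise. This was the ribonucleotide reductase subunit RIR1, at 0.61 ± 0.62 (SE), measured in only 6 F-HE and 5 F-LE livers without membrane 59. With membrane 59 KAD2 was at -1.09. In the second, the clamp-loader subunit RFC2 had -0.73, -0.48 and -0.16 in F-HE livers without membrane 59, against -0.38, 0.10 and 0.63 in F-LE livers, a difference of -0.57 ± 0.15 (SE, limma adjusted p = 0.404). The primase subunit PRI1 differed by -0.38 ± 0.16 (SE, limma adjusted p = 1.0), and by -0.21 over 16 arrays.

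Signalling genes divided. Of 10 clones, 5 had lower and 5 higher estimates, with a median of 0.01 over 15 arrays and -0.22 over 16. The lipid kinase PI52B, which makes a phosphoinositide, differed by -0.90 ± 0.22 (SE, limma adjusted p = 0.295) and was called over 13 arrays at -0.88 (limma adjusted p = 0.0759). The receptor GPR4 differed by -0.77 ± 0.19 (SE, limma adjusted p = 0.295) and myostatin (GDF8), an inhibitor of muscle growth, by -0.70 ± 0.23 (SE, limma adjusted p = 1.0). The kinase MAPK5 had the opposite direction, 0.74 ± 0.23 (SE, limma adjusted p = 0.854), with -0.27, 0.19 and 0.74 in F-HE livers without membrane 59, against -1.46, -0.55 and 0.31 in F-LE livers.

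Of 16 clones of vesicle and organelle trafficking, 1 was called. The kinesin KIF2A (1RT40H24_D_D12), which takes microtubules apart, had 0.09, 0.42 and 0.71 in F-HE livers without membrane 59, against 0.57, 1.07 and 1.38 in F-LE livers, a difference of -0.68 ± 0.15 (SE, limma adjusted p = 0.147). The list had 13 lower estimates of 16 and a median of -0.19 over 15 arrays. All clones with a protein name had 198 lower estimates of 283 and a median of -0.15, and 11 of the 283 were called. The 1 call of 16 is therefore not read as a result about trafficking. The second clone of the list by p, the sorting nexin SNX7, differed by -0.51 ± 0.18 (SE, limma adjusted p = 1.0).

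Another 3 called falls belonged to none of the lists. PKHA5 (1RT32E06_C_C03), a protein with a pleckstrin homology domain, had 2.10, 2.43 and 3.10 in F-HE livers without membrane 59, against 2.81, 3.36 and 4.12 in F-LE livers, a difference of -0.89 ± 0.18 (SE, limma adjusted p = 0.147). MYCBP (1RT85C01_A_B01), which binds the Myc protein and was named after its values were seen, had 1.23, 1.40 and 1.78 in F-HE livers, against 1.66, 2.12 and 2.28 in F-LE livers, a difference of -0.58 ± 0.13 (SE, limma adjusted p = 0.147). The clone 1RT117O05_A_H03, with no protein match, had 2.95, 3.18 and 3.84 in F-HE livers, against 3.61, 3.98 and 4.24 in F-LE livers, a difference of -0.67 ± 0.14 (SE, limma adjusted p = 0.147). Over 16 arrays, where neither was called, MYCBP was at -1.01 and 1RT117O05_A_H03 at -1.20. In these 3 clones the groups overlapped without membrane 59, with 5 or 6 of 7 F-HE livers below every F-LE liver.

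The only called rise, tcbk0015.h.07, has no name in the study's lists. Its level in F-HE livers without membrane 59 was -0.42, 0.03 and 0.20, against -0.84, -0.66 and -0.42 in F-LE livers. The groups did not overlap, the only such clone in this direction (0.0129%), although the nearest values of both groups lay at -0.42. The difference was 0.57 ± 0.12 (SE, limma adjusted p = 0.147, exact permutation p = 0.000155). Membrane 59 had -1.06, below every other liver. With it the difference was 0.44 and was not called (limma adjusted p = 0.854, exact permutation p = 0.0134). Next beyond the threshold, a rise of 0.86 ± 0.19 (SE, limma adjusted p = 0.167) was estimated for tcbk0027.d.02, also without a name, which was called over 13 arrays at 0.96 (limma adjusted p = 0.0899).

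Markers of the liver were present, and those of red blood cells gave no single direction. All 13 liver marker clones, the 12 of the plasma protein list and that of APA11, lay above the membrane median on all 15 arrays other than membrane 59, and 7 of 13 did so on all 8 F-HE arrays with it. Signals of a marker set were summed before the log2 was taken, so each sum rests mostly on its brightest spots. The log2 sum of these clones was between 8.53 and 8.93 in F-HE livers without membrane 59, against 8.26 and 9.001 in F-LE livers. Complement C1r (C1R) and factor H (CFAH) differed by 0.31 ± 0.13 and 0.50 ± 0.21 (SE), complement C3 (CO3) by -0.32 ± 0.19 and the chemotaxin LECT2 by -0.17 ± 0.32, none of them called. With membrane 59 C1R turned to -0.28, CFAH was at 0.31, CO3 at -0.80 and LECT2 at -0.43. The median of the 12 clones of the plasma protein list was 0.01 over 15 arrays and -0.37 over 16.

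ERMAP (1RT40C13_A_B07), an erythroid membrane protein, was called lower. It had 1.08, 1.60 and 1.94 in F-HE livers without membrane 59, against 1.79, 2.53 and 2.82 in F-LE livers, a difference of -0.90 ± 0.17 (SE, limma adjusted p = 0.147). The other 2 red blood cell markers were not called and had positive estimates, 0.24 ± 0.16 for band 3 (B3AT) and 0.08 ± 0.19 for RHAG (SE), against 0.00 and 0.30 over 16 arrays. Without membrane 59, 2 of the 3 markers lay above the membrane median on all arrays. RHAG lay below it on every array. The log2 of the summed signals of the 3 markers was between 2.78 and 3.76 in F-HE livers without membrane 59. In F-LE livers it was between 3.38 and 3.80. The lowest sum was that of membrane 65 in F-HE livers and of membrane 62 in F-LE livers.

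Of the other cell types, both lymphocyte markers had lower estimates, perforin (PERF) at -0.61 ± 0.23 and SH21B at -0.39 ± 0.17 (SE, limma adjusted p = 1.0 each), and over 16 arrays at -0.93 and -0.65. The log2 of their summed signals was between 2.64 and 3.96 in F-HE livers without membrane 59, against 3.58 and 4.60 in F-LE livers. The lowest sum was that of membrane 65 in F-HE livers and of membrane 62 in F-LE livers, both arrays of lower correlation. Of the 4 muscle markers parvalbumin (PRVA) had -0.57 ± 0.18 and MYOD2 0.26 ± 0.16 (SE, limma adjusted p = 0.996 and 1.0). Over 16 arrays MYOD2 turned to -0.11, all 4 had lower estimates and their median was -0.32, against 0.02 over 15. The log2 of the summed signals of the 4 was between 4.76 and 5.21 in F-HE livers without membrane 59. In F-LE livers it was between 5.08 and 5.41. The part of these cells in the results above was not tested.

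The diet difference of the L line was set beside that of the F line in 1 fit of 31 arrays, without membrane 59. All 12 clones called lower in the F line also had lower estimates in L-HE than in L-LE livers, and none of the 13 was called in the L line, where 2 clones were called in all (0.0258%). Of all clones lower in F-HE livers, 52.6% were also lower in L-HE livers, and 51.6% of all clones were lower in L-HE livers. Each of the 13 had a larger difference by size in the F line, on whose values the 13 were chosen, so that nothing about the lines is read from this. ERG28 differed by -1.08 in the F line and -0.51 ± 0.23 in the L line (SE), DHC24 by -1.08 and -0.61 ± 0.25, THIC by -1.07 and -0.56 ± 0.23, and EBP by -0.67 and -0.19 ± 0.19. ACBP and 6PGD were closer, at -0.91 and -0.73 ± 0.21 and at -1.10 and -0.92 ± 0.25.

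These gaps between the lines did not pass the test of the difference. The interaction of line and diet gave no called clone among 7759 over 31 arrays (0%) or 7763 over 32 arrays (0%), with 355 and 523 clones at an unadjusted p under 0.05 (4.58% and 6.74%). For ERG28 the difference of differences was -0.56 ± 0.33 (SE, limma unadjusted p = 0.0971, adjusted p = 0.811), and for EBP it was -0.48 ± 0.27 (limma unadjusted p = 0.0875). The rise of tcbk0015.h.07 was the 1 called clone with an unadjusted interaction p under 0.05. It differed by 0.57 in the F line and by -0.10 ± 0.14 in the L line (limma interaction, adjusted p = 0.811).

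The L-line values rest partly on weaker arrays, since the L-LE arrays on membranes 68, 53 and 56 had median correlations of 0.85, 0.86 and 0.90 with the other arrays of the series. In the fit of 31 arrays, where the spread is shared with the L line, no clone was called for the F line, ERG28 included (limma adjusted p = 0.18), with 234 clones at an unadjusted p under 0.05. With membranes 59, 62, 65, 68, 53 and 56 left out, an alternative chosen after seeing the data, no interaction was called (307 at an unadjusted p under 0.05). The difference of differences was then -0.25 for ERG28 and 0.79 for tcbk0015.h.07 (limma adjusted p = 0.999 and 0.312). Across the 7759 clones the F-line and L-line differences had a Pearson correlation of 0.19 and a Spearman correlation of 0.06 without membrane 59, and -0.23 and -0.37 with it over 7763 clones. The 2 sets of differences share no livers, but clones are not independent replicates.

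**Figure D4:**
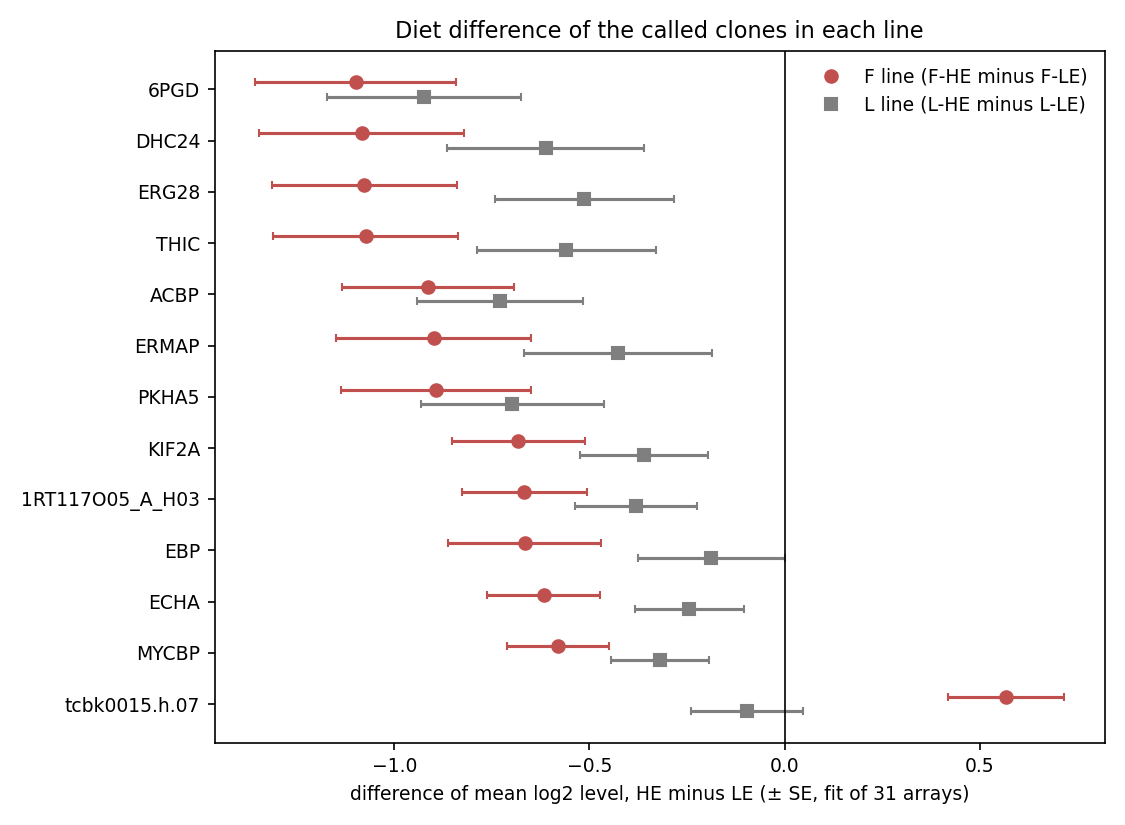
Points are differences of mean log2 level, HE minus LE, ± SE from the fit of 31 arrays, for the 13 called clones in the F line (circles, upper of each pair) and the L line (squares). The 12 falls have the same sign in both lines with larger F-line values, on which the clones were chosen, while tcbk0015.h.07 is at 0.57 in the F line and -0.10 in the L line.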

How the data were processed

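Liver RNA of single trout was hybridized to nylon cDNA membranes, 1 array per liver. The deposited values are log10 values: the authors quantified the signal of each spot, left out spots low in DNA, scaled the others by an oligonucleotide hybridization of the same spots, and divided by the array median. A bare 0, 18858 of the values on the 16 F-line arrays, was read as missing, and the rest were converted to log2. Clones with at least 5 values in both groups were tested with limma 3.58.1 in R 4.3.3, over 16 arrays and over 15 without membrane 59, with Benjamini-Hochberg adjustment over all clones tested. All 8 labelled livers per group were used. The spread is between fish, not tanks. The tests were tried on simulated data with independent noise for each clone and liver. Tank effects and weak arrays were not simulated, so the trial does not cover them. The number of livers and the quality of single arrays limit the precision. Clone names come from the study's lists (283 with a protein name, all tested). The members and lists were chosen with earlier results of these data known. Named clones were the 10 largest called falls and rises, the 2 clones of smallest p of each list, other list members where described, and up to 2 unnamed called falls and rises. Alternatives covered the normalization, filters, tanks, array weights, an ordinary ANOVA of the 2 F-line groups and leaving out arrays. No paired design was assumed: tanks of the same number are different tanks.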

Additional observations from a re-analysis of the deposited data

Results flagged for a closer look

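Of 41 groups of livers examined for a value far from the others, 11 held one. A chance rate of about 1 group in 20 would need independent groups and does not apply here. F-HE livers were examined both with and without membrane 59, and the clones were those called once membrane 59 was left out. The array on membrane 59 (F-HE) accounted for 9 of the 11. Its median correlation was 0.1593, with the nearest F-HE array at 0.8423. On the log2 scale its level was 0.689 for 6PGD (nearest F-HE liver 1.909), -0.1767 for DHC24 (-1.3), -1.061 for ACBP (3.935) and -0.003322 for ERMAP (1.079). It was -0.0475 for PKHA5 (2.099), -0.5714 for ECHA (3.784), -0.9295 for 1RT117O05_A_H03 (2.95) and -1.947 for MYCBP (1.23). The level was below the other F-HE livers for all of these but DHC24, where it was above.

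Among F-HE livers without membrane 59, THIC was 0.06611 on membrane 65, with the nearest liver at 0.9262. Among F-LE arrays, membrane 62 had a median correlation of 0.8283, with the nearest at 0.9575.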

How the results depend on the processing

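No difference of the 13 called clones changed sign under any alternative run, 308 of their values lost their call and 60 gained one. The 13 were chosen on largely the same livers, so the unchanged signs are no further evidence of their direction. Of the 119 listed clones, 20 had opposite signs with and without membrane 59. ERG28 was called without any single array (limma adjusted p between 0.00108 and 0.0389 over 15 arrays, 0.0031 and 0.0503 over 16), and was not called on tank means, in the fit of 31 arrays, without F-HE tank 1, or, over 16 arrays, without F-LE tank 2. The 1 call over 16 arrays became 4 in the fit of 32 arrays, 0 on tank means (258 at an unadjusted p under 0.05) and 5 with membrane number as a covariate. It became 88 with array weights (55 lower, 33 higher), 25 without membranes 59, 65 and 62, and 13 without membrane 59. An ordinary ANOVA of the 2 F-line groups alone gave 53 calls at an unadjusted p under 0.01. The study's own ANOVA took diet and line together over both lines and was not run here. Leaving out 1 array gave 1 to 13 calls and leaving out 1 tank 0 to 5. The 13 calls over 15 arrays became 1 at an adjusted p under 0.05, 0 in the fit of 31 arrays (234 unadjusted) and 6 after quantile normalization. They became 2 after re-centring, 2 with a variance trend and robust moderation, and 0 on tank means (225 unadjusted). With array weights there were 71 (46 lower, 25 higher), and without membranes 65 and 62 there were 25. The ordinary ANOVA of the 2 F-line groups gave 1 after Benjamini-Hochberg and 76 at an unadjusted p under 0.01. Leaving out 1 array gave 1 to 20 calls and leaving out 1 tank 0 to 10 (F-HE tanks 1, 2 and 3: 0, 1 and 5, with 209 unadjusted for the 0, and F-LE tanks 1, 2 and 3: 10, 1 and 1). The cause was not tested. The 0 calls of the interaction became 1 with the tank number as a block and 4 with array weights. With the tank number as a replicate block, 17 clones were called over 15 arrays and 1 over 16. Deviations of same-numbered tanks correlated at 0.408, 0.51 and 0.206 over 15 arrays, and at 0.111, -0.102 and 0.0247 without membranes 65 and 62.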
